A study of Mus musculus with 9 samples.

Results

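The 9 libraries of the series were divided by the level of Yap1 measured in them, not by the label they carry. Of the 9, all of which enter the comparison, 4 were Yap1-low (LYT006, LYT008, LYT014 and LYT016) and 5 were Yap1-high (LYT004, LYT005, LYT013, LYT015 and LYT017). The division was made at a Yap1 value of 10.5 on the transformed log2 scale of the deposited table. It differs from the titles in 2 libraries: LYT013 is labelled YAP-deleted and was Yap1-high, and LYT014 is labelled control and was Yap1-low. All cells came from C57BL/6J mice with a floxed YAP allele. Of these, 5 libraries (LYT014 with LYT004, LYT005, LYT015 and LYT017) are titled control and came from floxed mice without Cre, and 4 (LYT013 with LYT006, LYT008 and LYT016) are titled YAP ko and came from floxed mice that also carried LratCre, a Cre recombinase driven by the promoter of a gene that stellate cells use to store retinoids. Mice of both labels received 6 intraperitoneal injections of the liver toxin carbon tetrachloride (CCl4; 0.5 mg/kg as labelled, diluted in corn oil), 1 every 3 days, and cells were taken 2 days after the last. Hepatic stellate cells were enriched by density centrifugation, sorted by the autofluorescence of their retinoid droplets and lysed at once. The animals' ages are not given in the sources used here, and cells that had lost their retinoid droplets would not pass such a sort. Carrying Cre and losing Yap1 cannot be told apart by label, because no group carries the recombinase without the floxed allele. The labels do not say that each library was a separate mouse, so a p-value here reflects library-to-library spread, which may be technical.

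YAP, the product of Yap1, is a transcriptional coactivator that works with its paralogue TAZ (gene Wwtr1) and the DNA-binding TEAD factors. Kinases of the Hippo pathway phosphorylate YAP and hold it in the cytoplasm, and when they are inactive YAP enters the nucleus and raises genes such as Ccn1, Ccn2 and Ankrd1. Hepatic stellate cells store vitamin A in the uninjured liver, and after injury they can become contractile cells that make collagen, a transition in which YAP is known to take part.

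The transformed values gave back whole read numbers, with library totals from 14052502 to 31816055, and 16282 to 17341 genes were above the lowest value in each library. The library labelled YAP-deleted LYT013, headed LYT013.1 in the table, stood apart from the rest. Its correlations with the other 8 libraries over genes were 0.953 to 0.972, and those 8 correlated with each other at 0.976 or more. Against the median library, its genes with the shortest transcripts (up to 1698 bases) were 0.24 higher and those with the longest (from 5095 bases) 0.37 lower on the transformed log2 scale, and its mean over 65 ribosomal protein genes was 12.93, against 11.75 to 12.02 elsewhere. The labels name poly-A and ribosomal-RNA-depleted preparations without saying which library had which, and the part of preparation in these values was not tested. Results by Yap1 level are therefore given with and without LYT013. Stellate cell markers were high throughout, with a list mean between 15.11 and 15.41 in every library, and macrophage, endothelial and hepatocyte marker means lay between 6.09 and 8.21.

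Yap1 itself is described without a test, since its values chose the libraries. Its normalised read count was 642 in LYT006, 648 in LYT008, 618 in LYT014 and 645 in LYT016. It was 2902 in LYT004, 2915 in LYT005, 2530 in LYT013, 3653 in LYT015 and 3551 in LYT017. The means were 638 ± 13.8 (SD, n = 4) and 3110 ± 476 (SD, n = 5), a ratio of 4.87. The nearest libraries on either side of the threshold were LYT008 at 9.47 and LYT013 at 11.34 on the transformed log2 scale, and no library lay between them. The low libraries were close to each other whatever their label, and all 4 still held Yap1 reads. In bulk RNA, fewer cells with Yap1 transcript and less transcript per cell cannot be told apart. No library was given another label because of its level.

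**Figure D1:**
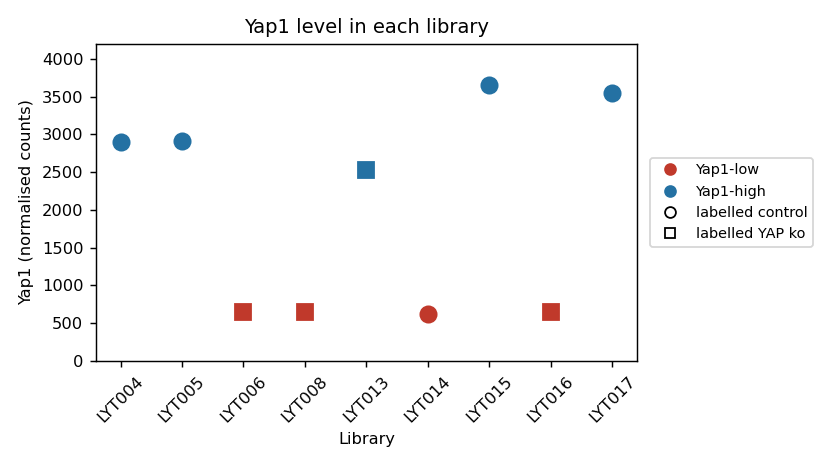
Normalised read count of Yap1 (vertical axis, linear from 0) in each of the 9 libraries (horizontal axis), with colour for the Yap1 side and circles for the label control or squares for the label YAP ko. The 4 Yap1-low libraries sit at 618 to 648 and the 5 others at 2530 to 3653, with the square LYT013 among the high and the circle LYT014 among the low.

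Few genes went with the measured Yap1 level across all 9 libraries. Of 17202 genes tested, 2 were higher and 2 lower in Yap1-low libraries (0.0116% in each direction, 0.0233% in all) at an adjusted p under 0.05 in limma with Benjamini-Hochberg adjustment, and 637 had an unadjusted p under 0.05. Tmtc2, which encodes an endoplasmic reticulum protein that adds mannose to cadherins, and Ackr4, a scavenging receptor for homeostatic chemokines, were higher. Ogn, which encodes the small leucine-rich proteoglycan osteoglycin, and Pkp2, a plaque protein of desmosomes, were lower. The libraries were grouped by one of the genes measured in them, so these p-values say how a gene goes with Yap1 level and not with genotype. The median difference over all genes tested was -0.003, and 50.8% of genes were lower in Yap1-low libraries.

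Tmtc2 (chromosome 10, 105187663 to 105574451, minus strand, GRCm38) had normalised counts of 6646 in LYT006, 6260 in LYT008, 7028 in LYT014 and 5643 in LYT016. It had 436 in LYT004, 465 in LYT005, 150 in LYT013, 387 in LYT015 and 402 in LYT017. The sides were far apart, the library labelled control LYT014 was the highest of all and the library labelled YAP-deleted LYT013 the lowest. The means of 6394 ± 591 (SD, n = 4) and 368 ± 126 (SD, n = 5) are a 17.4-fold difference, or 15.1-fold without LYT013. On the transformed log2 scale the difference was 3.98 ± 0.24 (SE), with a limma adjusted p of 8.14e-05, and 3.74 ± 0.09 with an adjusted p of 5.66e-08 without LYT013. With the libraries grouped by label, the same gene differed by 1.69 with a limma adjusted p of 0.653.

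Ackr4 (chromosome 9, 104084157 to 104126933, minus strand) had normalised counts of 614 in LYT006, 557 in LYT008, 567 in LYT014 and 408 in LYT016. It had 219 in LYT004, 190.1 in LYT005, 254 in LYT013, 195 in LYT015 and 206 in LYT017. The sides did not overlap, and LYT016 was the lowest of the Yap1-low libraries. The means were 537 ± 89.2 (SD, n = 4) and 213 ± 25.7 (SD, n = 5), a 2.52-fold difference (transformed log2 difference 1.13 ± 0.13 SE, limma adjusted p 0.0176). Without LYT013 the difference was 1.18 with a limma adjusted p of 0.00795. This call was the least firm of the 4: it was kept in 2 of the 9 fits that each left out 1 library, without LYT013 and without LYT016, and in the other fits the adjusted p reached at most 0.110. The other chemokine scavenger in the list, Ackr2, also had no overlap, at 34.1 against 11.5, without passing the test (adjusted p 0.573 in limma).

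Ogn (chromosome 13, 49608046 to 49624501, plus strand) had normalised counts of 145 in LYT006, 119 in LYT008, 136 in LYT014 and 95.9 in LYT016. It had 572 in LYT004, 575 in LYT005, 460.1 in LYT013, 510 in LYT015 and 834 in LYT017. Every Yap1-low library was below every Yap1-high one, and LYT017 was the highest. The means were 124 ± 21.8 (SD, n = 4) and 590.3 ± 144 (SD, n = 5), 4.76-fold lower in Yap1-low libraries (transformed log2 difference -1.83 ± 0.16 SE, limma adjusted p 0.00229, and -1.91 with 0.00165 without LYT013). Of the 9 small leucine-rich proteoglycan genes tested, 4 were lower and 5 higher with a median difference of 0.08 (4 lower and 0.06 without LYT013), and Ogn was the one that passed the test in either set of libraries. Among the abundant members, Lum, which encodes lumican, differed by 0.23 and Bgn, which encodes biglycan, by 0.15, neither past the test.

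Pkp2 (chromosome 16, 16213318 to 16272712, plus strand) had normalised counts of 36.9 in LYT006, 34.4 in LYT008, 27.3 in LYT014 and 30.03 in LYT016. It had 156 in LYT004, 172 in LYT005, 302 in LYT013, 225 in LYT015 and 180.0 in LYT017. The Yap1-low libraries were close together, and LYT013 was the highest of the rest. The means were 32.2 ± 4.32 (SD, n = 4) and 207 ± 59.2 (SD, n = 5), 6.43-fold lower (transformed log2 difference -1.66 ± 0.16 SE, limma adjusted p 0.00362, and -1.54 with 0.00164 without LYT013). Tmtc2, Ogn and Pkp2 passed in all 9 fits that left out 1 library. Of the 19 genes of the list of junction proteins and kinase anchors that were tested, 9 were lower and 10 higher (median 0.05), and Pkp2 alone passed. Without LYT013 the direction of the list turned, with 14 lower and a median of -0.09, and 2 passed, Pkp2 and Ptprf. Jup, the plakoglobin of the same plaques, differed by 0.30 in the other direction without passing the test (adjusted p 1.00 in limma).

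**Figure D2:**
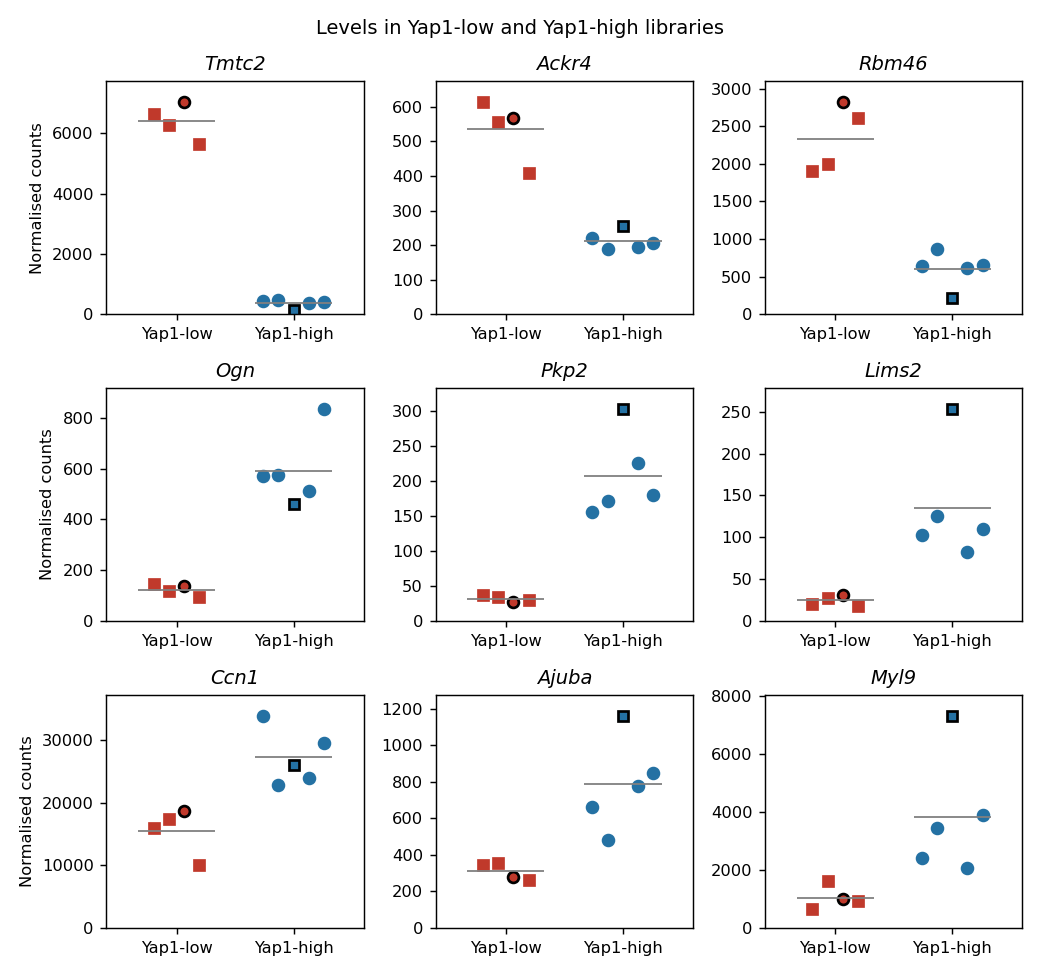
Normalised read counts (linear vertical axes from 0) of 9 genes in each library, by Yap1 side, with circles for libraries labelled control, squares for those labelled YAP ko, a black outline for LYT013 and LYT014 and a line at each side's mean. All 9 genes shown are ones whose sides do not overlap, and genes with overlap, such as Ccn2, Ankrd1, Tagln and Acta2, are not shown. LYT013 is the highest point for Pkp2, Lims2, Ajuba and Myl9 and the lowest for Tmtc2 and Rbm46.

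Leaving out LYT013 gave 3 higher and 6 lower genes of 16802 tested (0.0179% and 0.0357%, 0.0536% in all). The 4 genes above were among the 9. The other higher gene was Rbm46, an RNA-binding protein known from germ cells. Its normalised counts were 1907 in LYT006, 1999 in LYT008, 2819 in LYT014 and 2610.5 in LYT016, against 649 in LYT004, 868 in LYT005, 222 in LYT013, 619 in LYT015 and 661 in LYT017. The sides did not overlap, and LYT013 was far below the other Yap1-high libraries. The Rbm46 difference was 1.93 ± 0.30 with a limma adjusted p of 0.139 in 9 libraries and 1.65 with 0.00324 without LYT013.

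The 4 lower genes beside Ogn and Pkp2 were Lims2, Nos1, Tnc and Ptprf, the last named as a member of the junction list. Lims2, an adaptor that binds integrin-linked kinase, had a mean normalised count of 24.6 ± 6.07 (SD, n = 4) in Yap1-low and 135 ± 68.1 (SD, n = 5) in Yap1-high libraries. Its highest value was 253, in LYT013, and the sides did not overlap. The Lims2 difference was -1.32 with a limma adjusted p of 0.150 in 9 libraries and -1.13 with 0.0167 without LYT013. Nos1, the neuronal nitric oxide synthase, was 48.5 ± 20.6 (SD, n = 4) against 163 ± 43.6 (SD, n = 5). LYT014 at 78.6 and LYT013 at 93.3 were its neighbours across the gap. The Nos1 difference was -1.13 with a limma adjusted p of 0.166, and -1.26 with 0.0353 without LYT013.

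Tnc, the matrix glycoprotein tenascin C of wounds and scars, had normalised counts of 3169 in LYT006, 3856 in LYT008, 4629 in LYT014 and 3174 in LYT016. It had 7713 in LYT004, 7798 in LYT005, 4014 in LYT013, 6672 in LYT015 and 7025 in LYT017. LYT013 lay inside the range of the Yap1-low libraries, and the other Yap1-high libraries were all above it. The Tnc difference was -0.81 with a limma adjusted p of 0.496 in 9 libraries, and -0.98 with 0.0467 without LYT013. Ptprf, a receptor tyrosine phosphatase at cell contacts, was 192 ± 51.1 (SD, n = 4) against 491 ± 146 (SD, n = 5) with no overlap. The Ptprf difference was -1.12 with a limma adjusted p of 0.317, and -1.29 with 0.0488 without LYT013. Across all genes, 280 of 17202 (1.63%) had no overlap between the sides, 138 lower (0.802%) and 142 higher (0.825%), and 682 of 16802 (4.06%) without LYT013. Whether these shares exceed those of an arbitrary split into groups of the same sizes was not tested. A lack of overlap in a gene that did not pass is therefore only a description of its values. With the range of library codes as a covariate besides, a fit added after seeing the data, 8 genes were higher and 12 lower without LYT013 (0.0476% and 0.0714%, 0.119% in all), and the 9 above were among these 20.

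The 7 libraries in which label and Yap1 side go together gave a comparison to which LYT013 and LYT014 contributed nothing. Of 17295 genes, 3 were higher and 7 lower in the 3 Yap1-low libraries (0.0173% and 0.0405%, 0.0578% in all), and 1090 had an unadjusted p under 0.05. Tmtc2, Rbm46 and Ackr4 were higher, and Ogn, Pkp2, Nos1, Tnc, Lims2, Akap12 and Akap6 lower, the last pair being anchoring proteins for protein kinase A. The count of higher genes was 1 without LYT004, LYT006 or LYT017, and that of lower genes was 0 without LYT006 or LYT016, 1 without LYT017, and 4 without LYT004 or LYT008. The 10 genes were then read in the libraries that had been left out. LYT014, labelled control, was nearer the Yap1-low mean for 9 of the 10, where 46.7% of all genes tested were. LYT013, labelled YAP-deleted, was nearer the Yap1-high mean for 8 of the 10, where 42.6% of all genes were. Both held for 7 of the 10, against 20.1% of all genes.

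The position of each library can be put as a percentage of the way from the Yap1-high mean (0) to the Yap1-low mean (100) of the 7 libraries. LYT014 was at 105 for Tmtc2, 110.0 for Ackr4, 92.6 for Ogn, 109 for Pkp2 and 124 for Rbm46, all close to or past the low mean, and at 82.4 for Lims2. It was little past the midpoint for Nos1 at 59.0, Tnc at 59.3 and Akap6 at 56.2. It was on the high side for Akap12, at -8.25, where LYT014 had a normalised count of 231 and the other Yap1-low libraries 58.4 to 68.9. LYT013 was at -33.0 for Tmtc2, 23.0 for Ackr4, 19.1 for Ogn, -39.3 for Pkp2, -91.8 for Rbm46, -81.6 for Lims2 and -2.49 for Akap12. It was just short of the midpoint for Nos1, at 47.8. It went to the low side for Tnc, at 77.9, and past the low mean for Akap6, at 207. For Akap6 the normalised count in LYT013 was 243, below the 433 to 585 of the Yap1-low libraries, and its 9-library difference was -0.34 with a limma adjusted p of 1.00.

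**Figure D3:**
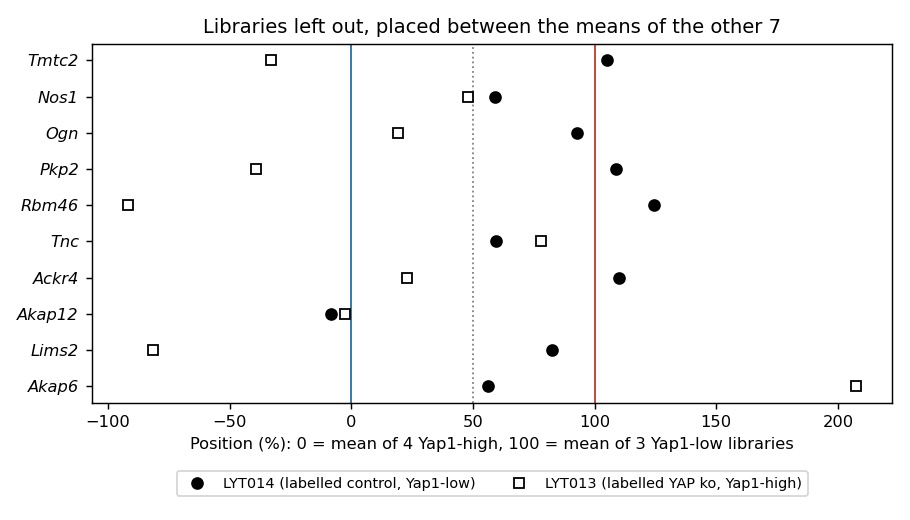
Position of LYT014 (filled circles) and LYT013 (open squares) on the horizontal axis, in percent of the way from the Yap1-high mean at 0 to the Yap1-low mean at 100 of the 7 other libraries, for each of the 10 genes called in those 7; the dotted line is the midpoint. LYT014 is past the midpoint for 9 genes and LYT013 short of it for 8.

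Grouped by label, no gene passed: limma gave 0 of 17203 (0%), with 1242 at an unadjusted p under 0.05 and a smallest adjusted p of 0.649, and voom weights on the recovered counts also gave 0. At an unadjusted p under 0.05 the label grouping thus had more genes than the 637 of 17202 by measured Yap1. The label difference was 0.68 for Ackr4, -1.19 for Ogn and -0.65 for Pkp2, each smaller than by measured Yap1. For these genes and Tmtc2 a smaller label difference was fixed in advance. They were called by measured Yap1 and their sides do not overlap, so moving LYT013 and LYT014 can only shrink it. The groupings share 7 of 9 libraries on the same side, and the difference between them was not tested.

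No listed target of YAP and TAZ passed the test, and a minority separated by Yap1 side. Of 22 target genes tested, 14 were lower and 8 higher in Yap1-low libraries, and the median difference was -0.08 against -0.003 over all genes. Without LYT013 the counts were 15 and 7 with a median of -0.10. Ccn1, a secreted matrix-associated protein, had normalised counts of 16002 in LYT006, 17512 in LYT008, 18690 in LYT014 and 10036 in LYT016. It had 33946 in LYT004, 22929 in LYT005, 26045 in LYT013, 24019.6 in LYT015 and 29599 in LYT017. The sides did not overlap, yet the Ccn1 difference of -0.83 ± 0.21 had a limma adjusted p of 0.496, and -0.85 with 0.398 without LYT013. Ccn2, its close relative, was 9675 ± 2137 (SD, n = 4) against 10895 ± 3365 (SD, n = 5), a difference of -0.14 with overlapping libraries. Ankrd1, a muscle ankyrin repeat protein, was sparse at 6.90 against 23.0 and differed by -0.62 with overlap.

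In all, 4 of the 22 targets had no overlap between the sides, where 1.63% of all genes tested had none (4.06% without LYT013). Ajuba, a LIM protein that restrains the Hippo kinases LATS, was 312 ± 45.9 (SD, n = 4) against 786 ± 252 (SD, n = 5). Its highest value was 1162 in LYT013, and its difference of -1.15 had a limma adjusted p of 0.166 (-1.001 with 0.120 without LYT013). Tgfb2, a TGF-beta ligand, was 391 against 625 (difference -0.61, limma adjusted p 0.344), and Crim1, a membrane protein that binds bone morphogenetic proteins, went the other way at 2867 against 1896 (0.62, 0.787). Among 27 genes for YAP, TAZ, TEAD factors and Hippo kinases, with Yap1 itself left out, 10 were lower and 17 higher with a median of 0.03, and 19 were lower with a median of -0.07 without LYT013. Wwtr1, which encodes TAZ, differed by 0.09 and Tead1 by -0.09. Without LYT013 Wwtr1 differed by -0.05 (limma adjusted p 0.977) and Tead1 by -0.34 (0.612), and the sides then did not overlap for Tead1. Dchs1, a large cadherin upstream of the Hippo kinases, had no overlap at 1398 against 873 but did not pass (limma adjusted p 0.705).

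Promoter sequences are shown for the called genes Ogn and Tmtc2 and for the targets Ccn1 and Ajuba, as examples of windows with and without the core TEAD motif among genes whose sides did not overlap. Each is the 250 bases before the start site in the RefSeq annotation of GRCm38.p6, on the gene's strand, 5′ to 3′, with capitals for the motif CATTCC or its reverse complement GGAATG. The windows are chr13:49607765-49608014 (plus strand) for Ogn, chr10:105574480-105574729 (minus strand) for Tmtc2, chr3:145649986-145650235 (minus strand) for Ccn1 and chr14:54577662-54577911 (minus strand) for Ajuba.
Ogn: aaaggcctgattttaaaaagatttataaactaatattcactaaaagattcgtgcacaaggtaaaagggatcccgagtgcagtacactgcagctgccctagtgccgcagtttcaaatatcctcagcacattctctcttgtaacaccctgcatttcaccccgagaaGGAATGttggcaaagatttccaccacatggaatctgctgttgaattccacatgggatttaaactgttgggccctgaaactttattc
Tmtc2: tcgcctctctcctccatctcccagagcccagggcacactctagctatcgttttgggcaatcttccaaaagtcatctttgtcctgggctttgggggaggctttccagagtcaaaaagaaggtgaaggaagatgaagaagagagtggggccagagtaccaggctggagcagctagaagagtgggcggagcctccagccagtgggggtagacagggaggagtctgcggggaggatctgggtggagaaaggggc
Ccn1: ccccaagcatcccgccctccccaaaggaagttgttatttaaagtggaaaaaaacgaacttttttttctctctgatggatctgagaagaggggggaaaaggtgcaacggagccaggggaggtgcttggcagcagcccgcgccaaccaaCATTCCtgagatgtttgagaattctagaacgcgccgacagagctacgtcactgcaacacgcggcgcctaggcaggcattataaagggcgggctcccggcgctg
Ajuba: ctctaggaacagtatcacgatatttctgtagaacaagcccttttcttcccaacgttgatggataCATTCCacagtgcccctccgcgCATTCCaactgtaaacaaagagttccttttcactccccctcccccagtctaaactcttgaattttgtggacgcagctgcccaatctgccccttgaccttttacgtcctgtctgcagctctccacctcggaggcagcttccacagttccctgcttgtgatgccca
Ogn had 1 match, at position -86 from the start site, Ccn1 had 1 at -103 and Ajuba had 2, at -186 and -164. Of the other genes in these groups with a window, Crim1, which was higher in Yap1-low libraries, had 1 at -79, and Tgfb2, which was lower, had none. Tmtc2 and Ackr4 had none in their windows. Rbm46, Nos1, Tnc and Akap6, called in the 7 libraries, had none either. No window was available for the called gene Pkp2 or for Lims2 and Akap12. Matches were thus found in genes of both directions, and so were windows without one. Of all 32851 windows of this length, 12.6% held the motif on either strand. Counted by gene, 14.4% of 27025 genes had a match in any of their windows, and 7 of the 16 listed targets with a window did. The difference between these shares was not tested. A match is a run of letters and not a measured binding site.

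Contractile genes were mostly lower in Yap1-low libraries without passing the test. Of 29 genes of the contractile cytoskeleton and serum response factor targets, 24 were lower and 5 higher with a median of -0.19, and 22 were lower with a median of -0.27 without LYT013. Myl9, a regulatory myosin light chain, had normalised counts of 657 in LYT006, 1629 in LYT008, 995 in LYT014 and 914 in LYT016, against 2411 in LYT004, 3437 in LYT005, 7320.2 in LYT013, 2082 in LYT015 and 3900.5 in LYT017. The sides did not overlap and LYT013 was the highest. The Myl9 difference was -1.74 ± 0.34 with a limma adjusted p of 0.279, and -1.47 with 0.187 without LYT013. Tagln, the actin-binding protein transgelin, was 4564 ± 1556 (SD, n = 4) against 11184 ± 5475 (SD, n = 5), with overlap (difference -1.22, limma adjusted p 0.687). Acta2, the smooth muscle actin that marks activated stellate cells, ranged from 430.5 to 2181 in Yap1-low and from 789 to 4899.9 in Yap1-high libraries. The Acta2 difference was -1.27 ± 0.59 with a limma adjusted p of 1.00 (unadjusted 0.0552), and -1.21 with an adjusted p of 0.873 without LYT013. Acta2 thus did not pass the adjustment over all genes, which does not show that the sides were alike.

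Of 12 vascular mural cell genes tested, 9 were lower and 3 higher with a median of -0.15, or 7 lower and -0.02 without LYT013. Notch3, the Notch receptor of pericytes and smooth muscle, was 1092 ± 348 (SD, n = 4) against 2548 ± 389 (SD, n = 5). The lowest Yap1-high value of Notch3 was 2048, in LYT013, and the highest Yap1-low value was 1464, in LYT008. Its difference was -1.22 ± 0.21 with a limma adjusted p of 0.166, and -1.29 with 0.120 without LYT013. Itga7, a laminin-binding integrin chain, was 32.1 against 117 with no overlap (difference -1.07, limma adjusted p 0.166). Kcnj8 and Abcc9, the subunits of a potassium channel of pericytes, differed by 0.40 and 0.51 in the other direction without passing.

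Collagen genes overlapped between the Yap1 sides. Of 30 fibrillar matrix genes, 19 were lower and 11 higher (median -0.09, or 20 lower and -0.16 without LYT013), none passed in 9 libraries, and Tnc did without LYT013. Col1a1, a chain of type I collagen, ranged from 21307 to 89565 in Yap1-low and from 23643 to 168118 in Yap1-high libraries, with a difference of -0.29. Col1a2 differed by -0.33, Col3a1 by -0.19, the cross-linking enzyme Lox by -0.58 and the protease inhibitor Timp1 by -0.05, none past the test. Without LYT013 the differences were -0.58 for Col1a1, -0.54 for Col1a2, -0.39 for Col3a1, -0.97 for Lox and 0.005 for Timp1, and none passed. In library codes LYT004 to LYT008 alone Col1a1 differed by -1.39, Col3a1 by -0.79, Lox by -1.97 and Timp1 by -0.64. In codes LYT013 to LYT017 alone the same genes differed by 0.29, 0.10, 0.29 and 0.36. The interaction of Yap1 side with code range did not pass for any of them (limma adjusted p 0.844 for each). Of 20 basement membrane genes, 11 were lower with a median of -0.02, and 18 were lower with a median of -0.15 without LYT013. Of 25 integrin and focal adhesion genes, 13 were lower (median -0.02), and 17 were (median -0.11) without LYT013, where Lims2 passed.

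Among signalling and quiescence genes, Ackr4 alone passed in 9 libraries. Of 18 TGF-beta pathway genes, 2 were lower and 16 higher (median 0.13, or 5 lower and 0.06 without LYT013), and the ligand Tgfb1 differed by 0.09. Of 7 PDGF ligands and receptors, 3 were lower and 4 higher (median 0.05), which turned to 5 lower (median -0.11) without LYT013, and the receptor Pdgfrb differed by -0.09 in 9 libraries. Of 24 quiescence and retinoid genes, 9 were lower and 15 higher (median 0.11, or 8 lower and 0.06 without LYT013), with Lrat, the retinol-esterifying enzyme, at 50888 ± 2899 (SD, n = 4) against 51836 ± 14751 (SD, n = 5). Of 13 nitric oxide and cGMP genes, 4 were lower and 9 higher (median 0.07), which turned to 7 lower (median -0.07) without LYT013, where Nos1 passed. Of 17 chemokine genes tested, 5 were lower and 12 higher (median 0.15, or 3 lower and 0.29 without LYT013), and Cxcl12, the main stellate cell chemokine, differed by 0.15. Among 20 immediate early genes 2 were lower and 18 higher (median 0.18, or 2 lower and 0.31 without LYT013).

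**Figure D4:**
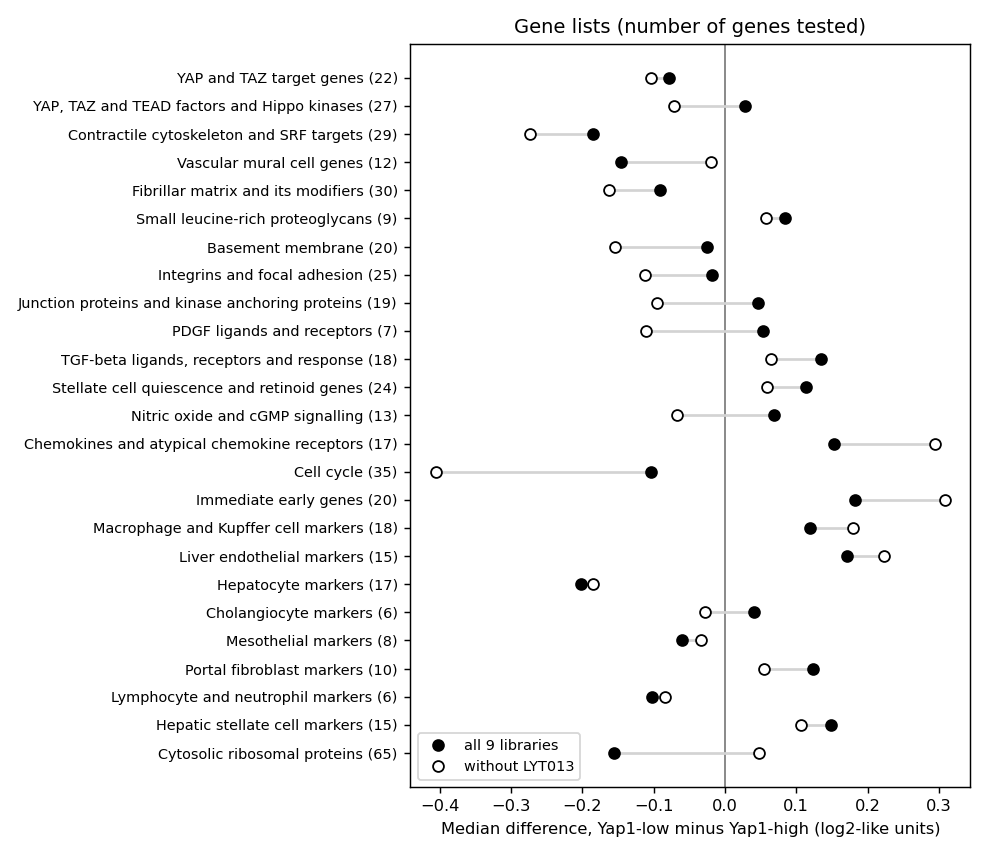
Median over the tested members of each list of the difference between Yap1-low and Yap1-high libraries (horizontal axis, transformed log2 scale), in all 9 libraries (filled) and without LYT013 (open), with the number of genes tested in brackets. Contractile genes lie at -0.19 and YAP and TAZ targets at -0.08 in 9 libraries, and the cell cycle and ribosomal lists move furthest between the filled and open points, to -0.41 and 0.05.

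Cell cycle genes varied widely within each side. The mean over 35 cell cycle genes was 9.55 in LYT004, 9.94 in LYT005, 9.47 in LYT008 and 8.36 in LYT014, and 6.99 to 7.21 in the other 5 libraries. Mki67, a marker of cycling cells, was 4991 in LYT004, 6434 in LYT005, 3643 in LYT008 and 1351 in LYT014, and 68.2 to 219 elsewhere. High and low libraries were found on both Yap1 sides. All 35 cell cycle genes were lower in Yap1-low libraries without LYT013 (median -0.41), and 26 were with it (median -0.10), with none passing. Ribosomal protein genes also changed with LYT013, but the other way: 64 of 65 were lower in Yap1-low libraries with it (median -0.16), and 15 of 65 (median 0.05) without LYT013. Tmtc2, Ackr4, Ogn and Pkp2 passed the limma test also with either list mean as a covariate.

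Markers of other cells gave no called gene. Of 18 macrophage markers, 15 were higher in Yap1-low libraries (median 0.12; list mean 6.38 to 7.22 against 6.09 to 6.85), and of 15 endothelial markers 11 were (0.17; 7.09 to 8.21 against 6.80 to 7.70). Of 17 hepatocyte markers 15 were lower (-0.20; 6.27 to 6.81 against 6.41 to 6.97). Without LYT013 the lower counts of these lists were 1 of 18, 2 of 15 and 15 of 17, with medians of 0.18, 0.22 and -0.19. Lymphocyte and neutrophil markers were at 5.44 to 5.46 against 5.49 to 5.75, near the table's lowest value of 4.96, with 2 of 14 at that value in every library. Cholangiocyte, mesothelial, portal fibroblast, erythroid and sex-linked lists had medians of 0.04, -0.06, 0.12, -0.40 and 0.10, over 6, 8, 10, 2 and 4 genes tested, and of -0.03, -0.03, 0.05, -0.51 and 0.01 without LYT013.

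Library codes fall into ranges, LYT004 to LYT008 and LYT013 to LYT017, and the labels do not say what a range stands for. Each range held libraries of both Yap1 sides. Within them, the Tmtc2 difference was 3.67 and 4.19, that of Ackr4 1.30 and 0.98, that of Ogn -1.75 and -1.91, and that of Pkp2 -1.35 and -1.89. The direction was the same in both ranges for these 4 genes. That was fixed in advance, because their sides do not overlap in the 9 libraries from which they were called. The most correlated library shared the code range for 8 of 9 libraries, the Yap1 side for 6 of 9 and the label also for 6 of 9. For the interaction of Yap1 side with code range limma gave 0 of 17202 genes (0%), with a smallest adjusted p of 0.0978 and 804 at an unadjusted p under 0.05, and voom also gave 0. The first principal components, with 42.3% and 25.2% of the variance, did not separate the sides, and component 3, with 8.96%, did. Yap1, whose values chose the sides, was kept among the genes for these correlations and components. Neither was computed without Yap1, so the separation on component 3 is a description only.

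**Figure D5:**
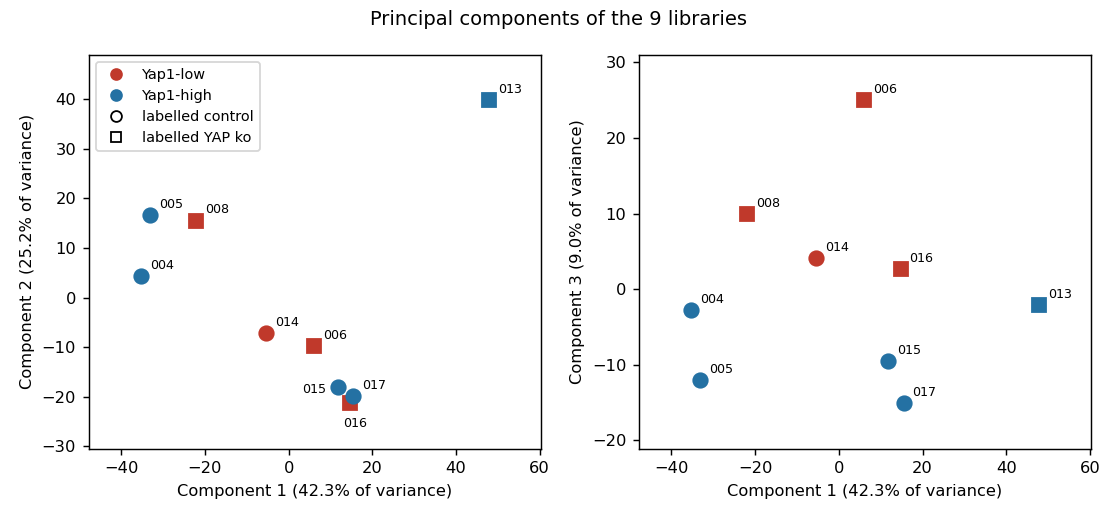
Scores of the 9 libraries on principal component 1 (horizontal axes) against component 2 (left) and component 3 (right) of the transformed values, with colour for the Yap1 side, shape for the label and library code numbers beside the points. LYT013 is farthest along component 1, and of components 1 to 3 the sides separate on component 3. Yap1 is among the genes used.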

How the data were processed

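RNA sequencing was measured in 9 libraries. The authors deposited 1 table of expression values after a variance-stabilising transform that approaches log2 of the normalised count. The submitters' processing notes list bcl2fastq 2.20, kallisto 0.44.0, sleuth and the builds GRCm38, mm10 and GRCh38 without roles. The transform was inverted to read counts, of which 100% came out whole within 0.1, so normalised counts are printed beside tests on the transformed values, where differences of low genes are understated. Since the deposited unit is transformed, the main tests used no count model, and limma voom on the recovered counts was run as an alternative. Of 35024 rows, 13872 were at the lowest value, 4.96, throughout, and 99.4% of names were in GENCODE M21.

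limma 3.58.1 in R 4.3.3 (mean-variance trend, two-sided, Benjamini-Hochberg at 0.05) tested genes that exceeded the table's minimum in 4 or more libraries (3 for the 7-library fit), with Yap1 left out except in the comparison by label, and was checked on simulated data. Named genes are those called in 9 or in 7 libraries, 21 fixed genes and up to 4 genes per list with the smallest p. Members and lists were chosen with earlier results of these data known. Alternatives covered filters, normalisation, weights, covariates, voom and leaving out each library. The result of 1 gene is not reported here.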

Additional observations from a re-analysis of the deposited data

Results flagged for a closer look

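Of 118 sets of values checked, 11 (9.32%) held a library far from the rest of its Yap1 side, and 9 of the 11 were LYT013. Chance gives about 1 in 20 for independent sets chosen without regard to these values. Here the sets are not independent, since single genes and list means were both checked. Akap6, Rbm46 and Akap12 were named from a fit that left out LYT013 and LYT014, which favours finding these libraries far off. The share of 9.32% therefore cannot be set against 1 in 20. All values are on the transformed log2 scale. Among the Yap1-high libraries, LYT013 was the lowest for Tmtc2 at 7.69 (8.80 to 9.04 in the other libraries of its side), Akap6 at 8.24 (9.62 to 9.81), Rbm46 at 8.13 (9.41 to 9.86) and Tnc at 11.99 (12.72 to 12.94). It was also the lowest for the TEAD factor gene Tead1 at 11.34 (12.45 to 12.69) and for the growth factor gene Hgf at 12.63 (14.28 to 14.79). Its mean over integrin and focal adhesion genes was 11.02 (11.28 to 11.35), that over sex-linked genes 8.68 (9.39 to 9.55) and that over ribosomal protein genes 12.93 (11.75 to 11.95). Among the Yap1-low libraries, the library labelled control LYT014 was high for Akap12 at 8.18 (6.81 to 6.94), and LYT008 was low for the mean of Hippo pathway genes at 9.94 (10.10 to 10.12).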

How the results depend on the processing

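In the 9 libraries grouped by Yap1 level, 2 genes were higher and 2 lower. The counts were 4 and 10 with library weights, 5 and 6 with the cell cycle mean as a covariate, and 4 and 7 with the ribosomal mean. Leaving out each library in turn gave 1 to 3 higher and 2 to 6 lower. Without LYT013 and LYT014 there were 7 lower. Settings chosen after seeing the data gave 8 and 12 without LYT013 with code range as a covariate, 7 lower without LYT013 with voom, 1 lower in codes LYT004 to LYT008 alone and 0 and 0 in codes LYT013 to LYT017 alone, where fewer libraries were fitted. Of 29 alternatives, Tmtc2 passed 28, Ogn 27, Pkp2 27 and Ackr4 20. By label, with Yap1 kept among the genes, 0 and 0 became 3 and 8 without LYT013 and LYT014, and stayed at 0 to 0 with any 1 library left out. In the 7 libraries, 3 and 7 became 4 lower with voom, 7 and 17 with code range, 11 and 24 with cell cycle, 7 and 13 with macrophage, and 1 and 0 with the ribosomal mean as a covariate. Leaving out 1 library there gave 1 to 3 higher and 0 to 7 lower. The interaction gave 1 higher gene with library weights, and 0 to 1 with 1 library left out (without LYT006 or LYT008). The cause of these changes was not tested, and no called gene changed direction. No paired analysis was possible because the library codes are not shared between groups.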

Other observations

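Leaving out LYT013 and adding code range as a covariate, a fit chosen after seeing the data, gave 8 genes higher and 12 lower in Yap1-low libraries of 16802 (0.0476% and 0.0714%, 0.119% in all) in limma at an adjusted p under 0.05. All 9 genes called without LYT013 were among them, and further genes are named here after their values were seen. The means below are normalised counts in the 4 Yap1-low libraries and the 4 Yap1-high libraries other than LYT013. Ramp2, a partner of the adrenomedullin receptor, was 2867 ± 417 (SD, n = 4) against 1642 ± 369.9 (SD, n = 4), with a limma adjusted p of 0.00361. Ttyh1, a membrane protein, was 639 against 302, Cdh18, a cadherin, 354 against 200.1, and Islr, a secreted protein of mesenchymal cells, 11358 against 7267. Sorcs2, a sorting receptor, was lower at 181 ± 27.3 (SD, n = 4) against 349 ± 33.8 (SD, n = 4), with a limma adjusted p of 0.00883. Lama2, a laminin chain of basement membranes, was 5626 against 9758, Susd2, a membrane protein of mesenchymal cells, 4468 against 7338, and Cpz, a secreted carboxypeptidase, 653 against 1416. Cacna1c, a calcium channel subunit, was 337 against 670.1, and Slc1a4, an amino acid transporter, 64.7 against 143. In all 9 libraries without the covariate, the smallest limma adjusted p of the further genes named here was 0.150.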
